A study of Mus musculus with 2 samples.

Results

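The genes of the MHC class I pathway and of the immunoproteasome were described in single-cell RNA sequencing libraries of mouse thymic epithelial cells (TECs). The 10 members were chosen by name from the 32285 genes that the matrices list. They are the classical class I heavy chains H2-K1 and H2-D1, the light chain B2m, the peptide transporter subunits Tap1 and Tap2, the loading factor Tapbp (tapasin), the immunoproteasome catalytic subunits Psmb8, Psmb9 and Psmb10, and Nlrc5, the transactivator of class I genes. Each of the 10 symbols matched 1 gene in both libraries.

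The study compared female C57BL/6 mice after sublethal irradiation with untreated mice of the same strain, at 15 days. TECs were sorted as EPCAM+ CD45- TER119- cells from enzymatically digested thymi, and each condition was 1 droplet-based library from a pool of 3 mice. The sample labels give the age as 9 weeks, and the protocol in the same labels speaks of 4 weeks. No animal of the pools can be told from another, so nothing below rests on replicates, and every interval covers counting error only.

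The identity of the libraries was in conflict. The sample labels call the smaller library irradiated and the larger one control, whereas the names of the matrices, and the numbers of cells that the study kept in each condition, put them the other way round. The smaller library held 4937 barcodes and 58185309 unique molecular identifiers (UMIs, counted transcript molecules), and the larger one 7167 barcodes and 82201657 UMIs. The filter of the study (more than 2000 and fewer than 7500 detected genes, and less than 15% mitochondrial UMIs) left 3233 and 5070 cells, with a median of 13412 and 13003.5 UMIs. The libraries are called smaller and larger here. Every ratio between them is larger over smaller, which reads irradiated over control by the matrix names and control over irradiated by the sample labels. They shared 17 barcodes, of which 5 were among the kept cells of both.

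Class I molecules show peptides from the inside of a cell to CD8 T cells. Proteasomes cut the proteins, the TAP transporter carries the peptides into the endoplasmic reticulum, and tapasin helps load them onto a heavy chain bound to B2m. In the immunoproteasome, Psmb9, Psmb10 and Psmb8 replace the constitutive subunits Psmb6, Psmb7 and Psmb5. Cortical TECs, which positively select thymocytes, carry another variant, the thymoproteasome, in which Psmb11 takes the place of Psmb8 or Psmb5 beside Psmb9 and Psmb10. Medullary TECs, many of which express the autoimmune regulator Aire at some stage, display tissue antigens for negative selection, and some of them take on features of tuft cells, microfold cells, enterocytes or keratinocytes.

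The members lie close together in part. In GRCm38, Psmb9 (chr17:34181987-34187764, minus strand), Tap1 (chr17:34187553-34197225, plus), Psmb8 (chr17:34197721-34201454, plus) and Tap2 (chr17:34203527-34216321, plus) occupy 34335 bases of the MHC on chromosome 17. Tapbp (chr17:33915899-33929292, plus), H2-K1 (chr17:33996017-34000347, minus) and H2-D1 (chr17:35262730-35267499, plus) lie on the same chromosome. B2m is at chr2:122147686-122153083 (plus), Nlrc5 at chr8:94434356-94527272 (plus) and Psmb10 at chr8:105935735-105938444 (minus). Tap1 and Psmb9 overlap by 212 bases at their 5′ ends. H2-K1 and H2-D1 have near-identical relatives among the class I genes, so their UMIs are uncertain to the extent that reads could be split between copies.

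Promoter windows from 250 bases before to 50 bases after the start were taken from RefSeq (GRCm38.p6) for the 8 members that the table holds (Tap2 and Nlrc5 were not in it). They are shown for H2-K1, H2-D1 and B2m, which make up the class I molecule, and for Tap1, whose window shares 275 bases with that of Psmb9 on the opposite strand. Capitals mark, on either strand, the letters AANNGAAA (core of interferon regulatory factor sites), GGGGATTCC (an NF-kappaB site), CCAAT (the Y box) and TGACG (the cyclic AMP response element core, part of the X2 box). The windows are chr17:34000298-34000597 (minus strand), chr17:35262844-35263143 (plus), chr2:122147437-122147736 (plus) and chr17:34187306-34187605 (plus), each written 5′ to 3′.
H2-K1: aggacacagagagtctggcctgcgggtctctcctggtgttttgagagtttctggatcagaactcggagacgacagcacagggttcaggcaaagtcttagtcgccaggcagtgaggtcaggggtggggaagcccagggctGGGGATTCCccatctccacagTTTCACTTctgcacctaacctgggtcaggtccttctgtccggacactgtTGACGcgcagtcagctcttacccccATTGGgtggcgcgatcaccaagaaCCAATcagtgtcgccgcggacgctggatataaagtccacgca
H2-D1: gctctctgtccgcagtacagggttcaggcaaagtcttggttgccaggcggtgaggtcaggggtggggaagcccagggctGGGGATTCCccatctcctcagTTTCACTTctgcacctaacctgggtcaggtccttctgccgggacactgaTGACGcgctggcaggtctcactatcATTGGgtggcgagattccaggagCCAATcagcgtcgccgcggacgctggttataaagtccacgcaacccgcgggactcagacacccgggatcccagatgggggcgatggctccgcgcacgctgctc
B2m: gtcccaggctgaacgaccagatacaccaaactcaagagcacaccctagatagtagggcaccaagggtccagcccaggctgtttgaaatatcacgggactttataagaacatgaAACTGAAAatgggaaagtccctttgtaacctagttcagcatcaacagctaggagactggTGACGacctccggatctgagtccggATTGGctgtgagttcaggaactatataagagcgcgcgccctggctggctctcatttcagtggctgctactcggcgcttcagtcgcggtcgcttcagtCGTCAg
Tap1: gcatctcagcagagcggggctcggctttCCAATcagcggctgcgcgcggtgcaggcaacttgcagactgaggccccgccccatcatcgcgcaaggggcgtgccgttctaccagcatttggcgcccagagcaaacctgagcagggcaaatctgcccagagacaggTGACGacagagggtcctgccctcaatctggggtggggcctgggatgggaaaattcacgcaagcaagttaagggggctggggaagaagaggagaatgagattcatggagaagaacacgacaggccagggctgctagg

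The H2-K1 and H2-D1 windows held the same set of matches, 1 AANNGAAA, 1 GGGGATTCC, 2 CCAAT and 1 TGACG each. The B2m window held 1 AANNGAAA, 1 CCAAT and 2 TGACG, and the Tap1 and Psmb9 windows each held 1 CCAAT and 1 TGACG. Tapbp had 2 CCAAT, and none of the 4 motifs was found in the windows of Psmb8 and Psmb10. The RefSeq starts are not always the ends of the gene spans given above. The windows of H2-D1, Tapbp (chr17:33919228-33919527), Psmb8 (chr17:34197945-34198244) and Psmb9 (chr17:34187281-34187580) lie inside those spans. For these 4 genes the bases upstream of the span were not searched, so a motif missing from the window can still lie there. Of all 32851 promoter windows in the table, 23.9% held AANNGAAA, 0.25% held GGGGATTCC, 37.4% held CCAAT and 20.8% held TGACG, so all but GGGGATTCC are common letters in a window of 300 bases. The capitals in the windows printed do not overlap each other. A match is a description of the letters and not a measured binding site.

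Cells were placed in 11 gates by UMIs of marker genes that are not members. The smaller and larger library gave 144 and 325 cTEC-like cells (Prss16 and Ccl25), 30 and 90 cTEC-like cells that also held at least 5 UMIs of 15 thymocyte genes, 178 and 176 tuft-like cells, 291 and 747 dividing cells, 703 and 1099 Aire-high cells, and 116 and 188 Aire-low cells. Keratinocyte-like cells numbered 86 and 91, microfold-like cells 63 and 74, enterocyte-like cells 77 and 96, Ccl21a-high medullary cells 1039 and 1668, and Pdpn-positive cells 135 and 91. The remaining 371 and 425 cells met no gate. A UMI of Epcam was found in 97.7% and 97.9% of the kept cells. No doublet caller was run. The cTEC-like cells with thymocyte RNA had a median of 35134.5 and 27445.5 UMIs, more than any other gate, and were kept apart from the other cTEC-like cells.

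Other cell types were checked by their markers. The 15 thymocyte genes summed to 29.4 and 27.6 UMIs per 10000 in the gate split off for them and to at most 1.23 in any other gate. The 7 myeloid genes summed to 12.1 and 11.8 UMIs per 10000 in microfold-like cells, 8.65 and 8.45 in enterocyte-like cells, 8.31 and 8.18 in Aire-high cells and 9.99 and 2.77 in keratinocyte-like cells, against 0.496 and 0.172 in Ccl21a-high cells. In enterocyte-like cells this sum was led by Lyz2 (6.56 and 6.37) and Fcer1g (1.79 and 1.80). Cd68 had 25 and 21 UMIs there, Csf1r 10 and 8 and Itgam 4 and 6, and Itgax and Tyrobp had none in either library. The level of Cd68 was 0.189 and 0.166 against 0.0762 and 0.0725 over all kept cells, and that of Csf1r 0.0757 and 0.0633 against 0.0521 and 0.0365. Over all kept cells Itgax had only 9 and 15 UMIs, and Tyrobp 172 and 218. RNA free in the droplets was not measured here.

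Levels are the UMIs of a gene per 10000 UMIs of all genes, summed over the cells of a gate, with exact Poisson 95% intervals. They count 3′ ends and are compared for 1 gene across gates, not between genes. Values are given for the smaller and then the larger library. Gates were called apart where a gene differed by at least 1 on the log2 scale, in the same direction in both libraries. The gene needed at least 100 UMIs over the 2 gates together in each library, so it could pass through the gate where it was high. The 9 members other than Nlrc5 had at least 100 UMIs in every gate and library. Shares of all genes called between gates include genes with fewer, and are thus not matched to the members in count. Libraries were called apart where a gene differed by at least 0.5 with at least 100 UMIs in each.

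The class I heavy chains and B2m were highest in enterocyte-like cells and lowest in cTEC-like cells with thymocyte RNA, in both libraries. H2-K1 stood at 88.2 and 95 UMIs per 10000 in enterocyte-like cells, 74.0 and 81.5 in microfold-like cells, 66.9 and 71.5 in keratinocyte-like cells and 57.2 and 66.5 in Ccl21a-high cells. It stood at 43.2 and 53.3 in cTEC-like cells, 41.8 and 50.3 in dividing cells, 36.7 and 46.4 in Pdpn-positive cells, and 31.8 and 40.3 in cTEC-like cells with thymocyte RNA. The highest gate was thus 2.77-fold and 2.36-fold above the lowest. In this order of the 11 gates, 3 of 10 neighbouring pairs were separated, meaning that both libraries of the upper gate exceeded both of the lower one. These were the 3 steps from enterocyte-like down to Ccl21a-high cells. The order was set by the mean of the same 2 values, and the intervals were not used. Such counts, here and below, were not made over all genes, so they are descriptions and no measure of how well gates are resolved.

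H2-D1, the second classical heavy chain, ran from 32.9 and 30.1 UMIs per 10000 in enterocyte-like cells to 10.8 and 10.5 in cTEC-like cells with thymocyte RNA. Tuft-like cells came next to the top with 24.9 and 26.3, and cTEC-like cells, with 15.7 and 15.3, were near Pdpn-positive cells, with 15.2 and 15.1. The fold over the gates was 3.05 and 2.87, and 7 of 10 neighbouring pairs were separated. The step from cTEC-like to Pdpn-positive cells is among the 7, although intervals overlapped (14.96 to 15.62 for cTEC-like cells of the larger library, 14.57 to 15.77 for Pdpn-positive cells of the smaller).

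B2m, the light chain that all class I heavy chains share, had the widest range of these genes. It stood at 60.5 (59.1 to 61.8) and 57.7 (56.3 to 59.0) UMIs per 10000 in enterocyte-like cells, 46.1 and 36.6 in microfold-like cells, 44.2 and 37.9 in Aire-low cells and 39.2 and 35.9 in Aire-high cells. Ccl21a-high cells had 27.5 and 26.5, dividing cells 21.5 and 20.1, cTEC-like cells 20.9 and 20.7, Pdpn-positive cells 15.6 and 15.3, and cTEC-like cells with thymocyte RNA 14.3 and 14.6. The fold from highest to lowest was 4.24 and 3.94. Aire-high cells were therefore above Ccl21a-high cells for B2m, but below them for H2-K1 (49.9 and 57.9), in both libraries.

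**Figure D1:**
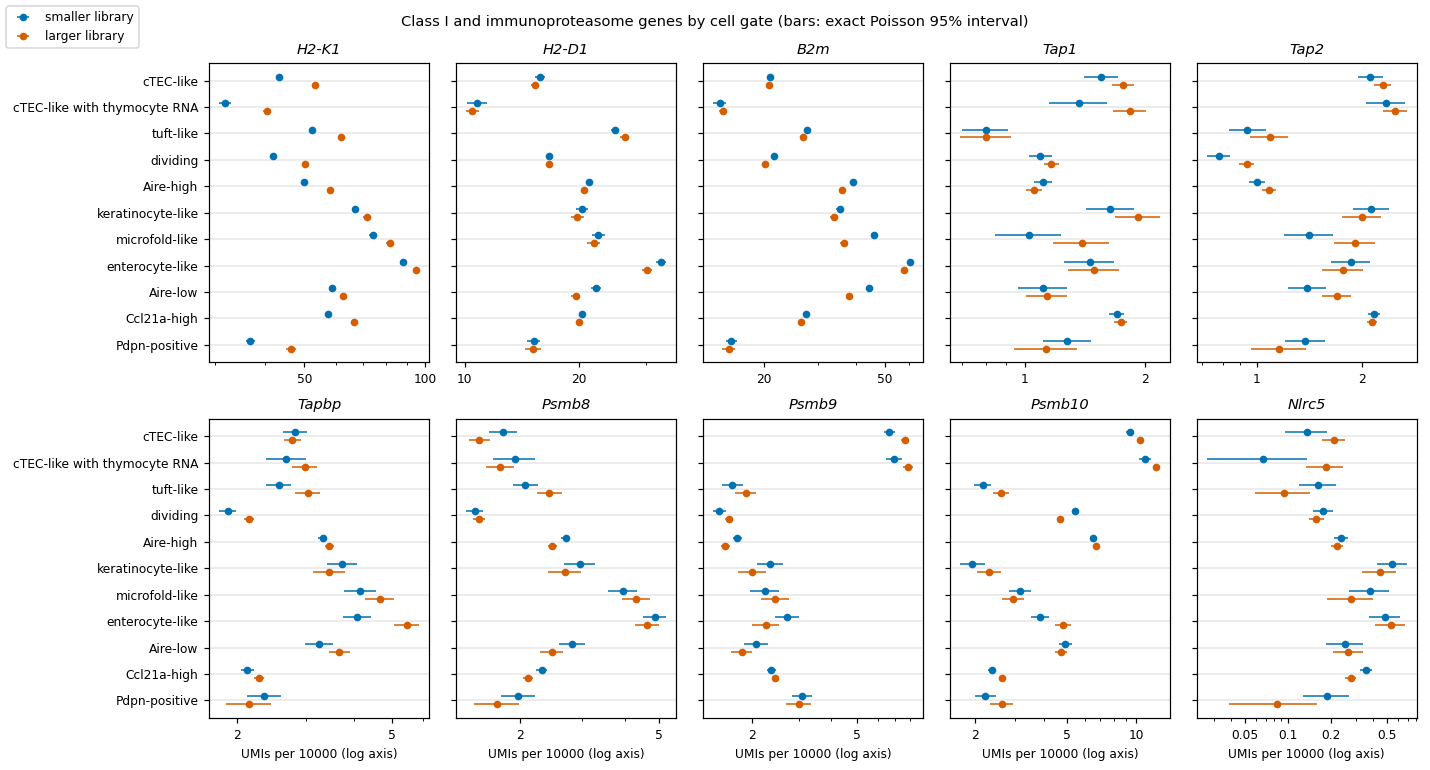
UMIs per 10000 of each of the 10 members (horizontal log axis) in the 11 gates (vertical axis) in the smaller and larger library, with exact Poisson 95% intervals as bars. Enterocyte-like cells were highest for H2-K1, H2-D1 and B2m, and both cTEC-like gates for Psmb9 and Psmb10, in each library.

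The peptide transporter had another order. Tap1 was highest in keratinocyte-like cells (1.64 and 1.92 UMIs per 10000), Ccl21a-high cells (1.70 and 1.73) and cTEC-like cells (1.55 and 1.76), and lowest in tuft-like cells (0.80 and 0.80). Its partner Tap2 was highest in cTEC-like cells with thymocyte RNA (2.33 and 2.48), followed by cTEC-like cells (2.11 and 2.30), Ccl21a-high cells (2.16 and 2.14) and keratinocyte-like cells (2.13 and 2.0). Its lowest level was in dividing cells (0.779 and 0.937), with Aire-high cells (1.00 and 1.09) and tuft-like cells (0.942 and 1.09) just above. The profiles of Tap1 and Tap2 over the 11 gates in both libraries (22 points) had a Pearson r of 0.83 on the log2 scale, given as a description, since points of 1 library share its depth.

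Tapbp, which bridges class I molecules to the transporter, did not follow it. Its levels were 4.07 and 5.46 UMIs per 10000 in enterocyte-like cells, 4.15 and 4.65 in microfold-like cells and 3.32 and 3.46 in Aire-high cells, against 2.12 and 2.27 in Ccl21a-high cells and 1.89 and 2.15 in dividing cells. The profile of Tapbp was most like that of Psmb8 among the members, with an r of 0.87.

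The immunoproteasome subunits did not share 1 profile. Psmb8 was highest in enterocyte-like cells (4.86 and 4.63 UMIs per 10000) and microfold-like cells (3.94 and 4.31). It was low in dividing cells (1.48 and 1.52) and in cTEC-like cells (1.79 and 1.52). Psmb9 and Psmb10 were highest in the cTEC-like gates, where Psmb8 was near its lowest.

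Psmb9 stood at 6.65 (6.35 to 6.96) and 7.63 (7.40 to 7.86) UMIs per 10000 in cTEC-like cells, and at 6.93 and 7.84 in those with thymocyte RNA. No other gate exceeded 3.08 and 3.0, the level of Pdpn-positive cells, and the lowest were dividing cells (1.5 and 1.63), Aire-high cells (1.75 and 1.58) and tuft-like cells (1.68 and 1.88). The cTEC-like gates and the other 9 gates did not overlap for this gene, whereas only 2 of 10 neighbouring pairs in the order were separated.

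Psmb10 was likewise highest in the cTEC-like gates. It stood at 9.43 (9.07 to 9.81) and 10.4 (10.1 to 10.7) UMIs per 10000 in cTEC-like cells and 10.9 and 12.2 in those with thymocyte RNA. Aire-high cells (6.52 and 6.67), dividing cells (5.43 and 4.69) and Aire-low cells (4.94 and 4.74) came next by the mean of both libraries. Enterocyte-like cells (3.85 and 4.82) exceeded dividing and Aire-low cells in the larger library. Keratinocyte-like cells were lowest (1.96 and 2.32). The fold from highest to lowest was 5.58 and 5.28, the widest of the 9 members with at least 100 UMIs in every gate and library.

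Nlrc5, the least counted member, had 1328 and 1675 UMIs over all kept cells (0.257 and 0.222 per 10000). It was highest in keratinocyte-like cells (0.546 and 0.443) and enterocyte-like cells (0.484 and 0.530) and stood at 0.136 and 0.212 in cTEC-like cells. It had under 100 UMIs in at least 1 library in 8 of 11 gates, so most of the order of its levels was not resolved at this depth. In cTEC-like cells with thymocyte RNA its 7 UMIs in the smaller library gave 0.0667 (0.0268 to 0.137), the least certain of its values.

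Compared with Ccl21a-high cells, cTEC-like cells were called higher for 2 of 10 members. Psmb10 differed by 1.99 (1.88 to 2.09) and 1.98 (1.90 to 2.06) on the log2 scale, and Psmb9 by 1.49 (1.37 to 1.62) and 1.64 (1.56 to 1.73). No member was called lower. Of the 10013 genes tested, 4.98% were called higher and 6.59% lower, and the median member differed by -0.25 and -0.15 against 0.04 and 0.05 for all genes. Both calls held under every alternative tried. The level of Ccl21a was 21.4 and 29.4 in cTEC-like cells and 113.5 and 111.8 in Ccl21a-high cells. The part of medullary RNA in the cTEC-like gate in this contrast was not tested.

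In the same contrast Psmb11, the cortical subunit, was higher by 6.48 and 6.14, and Psmb4, a structural subunit of the same 20S core, by 1.32 and 1.42. It was the only one of the 11 other 20S subunits called. Psme1, part of the PA28 activator that binds immunoproteasomes, was lower in cTEC-like cells by -1.11 and -1.68 (1.03 and 0.67 against 2.22 and 2.16 UMIs per 10000). None of 8 peptide loading and trimming genes was called. Of 14 regulators, Irf7 (-1.98 and -1.76) and Stat2 (-1.40 and -1.18), both of the interferon response, were lower, and the interferon gamma receptor chain Ifngr1 was lower by -1.54 and -1.20.

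Aire-high cells were called higher than Ccl21a-high cells for 1 of 10 members, Psmb10, by 1.45 (1.37 to 1.54) and 1.34 (1.27 to 1.41). None was called lower, where 20.7% of 12639 genes were called higher and 13.7% lower. Tap2 was just outside the limit at -1.11 and -0.98 and was called lower under 3 of the alternatives. The PA28 chain Psme2 (1.66 and 1.54), the loading chaperone Calr (1.20 and 1.13), and 3 of 14 regulators were higher in Aire-high cells, the transcription factors Irf8 (1.66 and 1.99) and Relb (1.40 and 1.29) and the class II transactivator Ciita (1.45 and 1.17). Lower were 4 of 14 regulators, among them Irf7 (-2.82 and -3.18), Stat2 (-2.44 and -2.20) and Irf9 (-2.28 and -2.15), all of interferon signalling. Of 11 interferon and receptor genes tested, the receptor chains Ifnlr1 (-3.77 and -3.76), Ifngr1 (-2.07 and -1.98) and Ifnar2 (-1.14 and -1.36) were lower. The cytokine genes Ifnl2 and Ifnl3, with few UMIs, were called higher under the minimum summed over both gates, and these calls are not read further.

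Enterocyte-like cells were called higher than Ccl21a-high cells for 2 of 10 members, B2m by 1.14 (1.09 to 1.19) and 1.12 (1.08 to 1.17) and Psmb8 by 1.08 (0.91 to 1.24) and 1.14 (0.97 to 1.30). None was called lower, and 10.2% of 9908 genes were called higher and 16.3% lower. The median member was higher by 0.66 and 0.73, while the median of all genes was lower by -0.24 and -0.25. Tapbp was just outside the limit (0.94 and 1.27). Both calls lay near the limit. Neither gene was called with doubled gate minimums (1.05 and 0.99 for B2m, 0.94 and 1.10 for Psmb8), after thinning to 4000 UMIs (0.97 and 1.02, 0.92 and 1.04) or with mitochondrial and ribosomal genes left out of the total. The thinned setting drew the gates again from the thinned counts, which gave 57 and 99 enterocyte-like cells. B2m alone lost its call (0.80 and 0.88) without cells that held at least 2 UMIs of the 7 myeloid genes, and Psmb8 alone with minimums per 10000 UMIs (0.90 and 1.19) or divided by 2 (0.94 and 1.12).

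Of 14 regulators, 4 were also called higher in enterocyte-like cells, all transcription factors of interferon or NF-kappaB responses. These were Irf8 (2.68 and 2.68), Irf1 (1.29 and 1.75), Relb (1.15 and 1.02) and Irf2 (1.03 and 1.13). Another 3 of the 14 were called lower, Irf9 (-1.78 and -1.72), Irf7 (-1.74 and -1.44) and Rfxap. Of 9 interferon and receptor genes tested, Tyk2 was called higher and Ifngr1 lower. Ifngr1 was thus lower here, as in cTEC-like, Aire-high and tuft-like cells. Both PA28 chains were higher, Psme1 by 1.19 and 1.27 and Psme2 by 1.44 and 1.34, and so were 3 of 11 class Ib and class I-like genes tested, led by H2-Q2 (3.07 and 2.52) and H2-Q10 (2.0 and 1.86). Of the same 11 genes, 1 was called lower, Mr1. The myeloid sums above were also higher in this gate than in Ccl21a-high cells, and beyond the exclusion just given their part in these differences was not tested.

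Tuft-like cells were called lower than Ccl21a-high cells for 2 of 10 members, Tap1 by -1.08 (-1.34 to -0.83) and -1.11 (-1.38 to -0.86) and Nlrc5 by -1.10 (-1.71 to -0.56) and -1.54 (-2.37 to -0.84). With 46 and 22 UMIs in tuft-like cells, Nlrc5 reached the minimum only through Ccl21a-high cells, where it was higher, so its call is no support for a difference in the members. No member was called higher, and 12.3% of 10269 genes were called higher and 11.6% lower. Tap2, at -1.20 and -0.97, was just outside. Neither Tap1 nor Nlrc5 stayed past the limit in both libraries without cells with at least 2 UMIs of the thymocyte genes. The values were then -1.06 and -0.99 for Tap1 and -0.94 and -1.33 for Nlrc5, with 136 and 133 tuft-like cells left. In tuft-like cells the sum of these genes (0.792 and 0.817 UMIs per 10000) was led by Ptprc (0.461 and 0.505). Themis had 47 and 13 UMIs, Cd2 18 and 15, Cd4 10 and 11 and Dntt 0 and 13. The CD3 chains had few, with 1 and 6 for Cd3d, 1 and 0 for Cd3e and 2 and 4 for Cd3g. How much of this sum was thymocyte RNA, and its part in the 2 calls, was not tested. H2-D1, unlike Tap1 and Nlrc5, was higher in tuft-like cells (24.9 and 26.3 UMIs per 10000) than in Ccl21a-high cells (20.3 and 19.99) in both libraries. Ifngr1 (-2.49 and -2.46) and Stat2 (-1.30 and -1.16) were lower in tuft-like cells.

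Dividing cells were not called apart from Aire-high cells for any of the 10 members, where 6.25% of 12232 genes were called higher and 15.7% lower. B2m (-0.86 and -0.84), Psmb8 (-0.87 and -0.70) and Tapbp (-0.81 and -0.69) were nevertheless lower in dividing cells, a gate with a median of 27897 and 22460 UMIs per cell against 18982 and 16284 in Aire-high cells. Likewise, cTEC-like cells with thymocyte RNA were not called apart from other cTEC-like cells for any of 9 members tested (1.84% of 5806 genes were higher and 2.02% lower). H2-K1 (-0.44 and -0.40), H2-D1 (-0.54 and -0.55) and B2m (-0.55 and -0.50) were lower there, and Psmb10 was higher by 0.21 and 0.23. Marker genes differed between these gates as well. The level of Ccl21a was 4.82 and 1.61 in cTEC-like cells with thymocyte RNA and 21.4 and 29.4 in other cTEC-like cells. That of Aire was 0.0286 and 0.382 against 1.32 and 0.645, and that of Prss16 was 60.9 and 71.8 against 34.7 and 49.1. The part of the thymocyte RNA, or of medullary RNA in the other cTEC-like cells, in the differences of the members was not tested.

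The share of each immunoproteasome subunit among the UMIs of the subunits that can take its place was then compared across gates. Such shares are ratios of 3′ counts of different genes, so they are read across gates and not as shares of protein. Psmb9 made up 70.3% and 70.3% of the UMIs of Psmb6 and Psmb9 in cTEC-like cells, 47.9% and 48.3% in Ccl21a-high cells, 40.5% and 37.7% in Aire-high cells and 30.4% and 31.8% in dividing cells. Psmb10 made up 88.4% and 88.8% of Psmb7 and Psmb10 in cTEC-like cells and 82.0% and 82.4% in Aire-high cells. In microfold-like cells it made up 45.5% and 44.0%, the lowest share of any gate, and there the constitutive Psmb7 stood at 3.77 and 3.73 UMIs per 10000 against 1.03 and 1.03 in Ccl21a-high cells.

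Psmb8 had its lowest shares in the cTEC-like gates, where those of Psmb9 were highest, while dividing cells were the lowest of the other 9 gates for both. It made up 15.1% and 11.7% of Psmb5, Psmb8 and Psmb11 in cTEC-like cells, where Psmb11 made up 64.6% and 68.1%. In the other 9 gates Psmb11 reached at most 10.0%, in Pdpn-positive cells of the larger library, and in cells of no gate it made up 9.57% and 14.8%. The share of Psmb8 was 72.6% and 72.9% in enterocyte-like cells, 71.8% and 74.7% in microfold-like cells and 57.7% and 53.4% in Ccl21a-high cells. Over all kept cells it was 46.9% and 39.5%, while the cTEC-like share of cells was 4.45% and 6.41%. The part of these cell numbers in the difference over all cells was not tested.

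**Figure D2:**
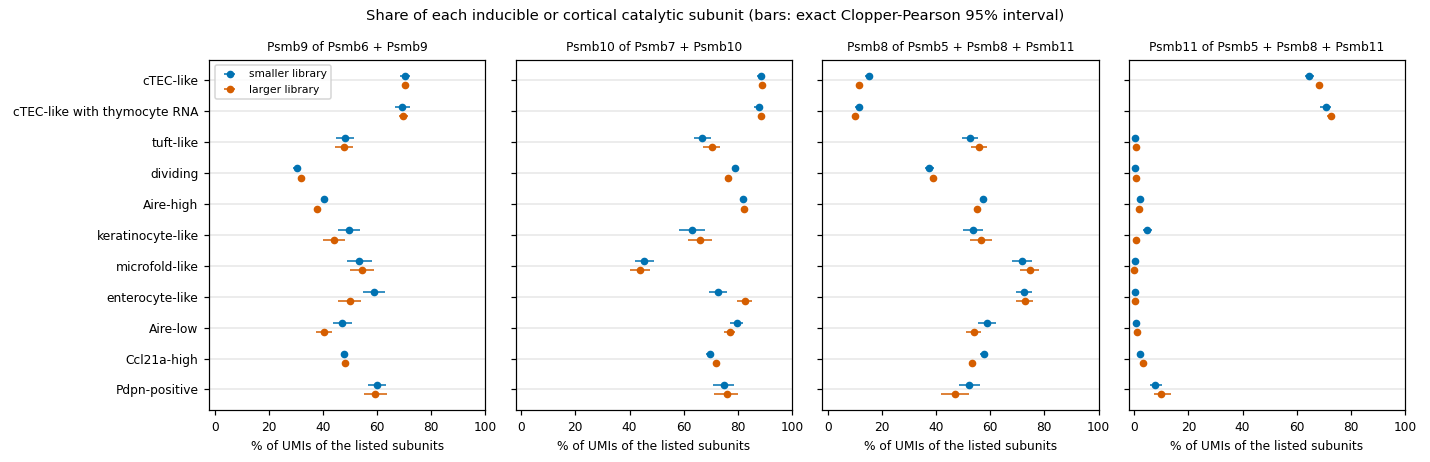
Share in percent (horizontal axis) of an immunoproteasome or thymoproteasome subunit among the UMIs of the subunits at its position, in each gate (vertical axis) and library, with exact binomial 95% intervals. The cTEC-like gates had the highest shares of Psmb9 (70.3% and 70.3%) and Psmb11 (64.6% and 68.1%) and a low share of Psmb8 (15.1% and 11.7%).

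The members were also set against the number of Aire UMIs. Cells outside the cTEC-like, tuft-like and dividing gates were thinned to 4000 UMIs and sorted by the number of Aire UMIs left, into 0, 1, 2 to 3, 4 to 7, and 8 or more, with 1743, 214, 224, 290 and 119 cells in the smaller library and 2378, 327, 352, 442 and 228 in the larger. Psmb10 stood at 2.50, 4.68, 6.21, 6.51 and 5.86 UMIs per 10000 in the smaller library. In the larger library it stood at 2.78, 4.43, 6.14, 6.96 and 7.43. Cells with any Aire UMI were above cells without in each library, and most of the difference lay below 4 Aire UMIs. By the order of the gates, the 1039 and 1668 Ccl21a-high cells held fewer than 2 Aire UMIs, so they lie in the bins of 0 and 1. The same holds for Pdpn-positive cells and cells of no gate. The bins thus differ in cell type as well as in Aire, and the part of each was not tested.

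B2m was lowest in cells without an Aire UMI, at 28.4 and 26.9 UMIs per 10000. It stood at 42.6 and 37.0 with 1 UMI, 45.6 and 42.0 with 2 to 3, 41.5 and 37.5 with 4 to 7, and 42.8 and 40.3 with 8 or more, so its highest level was in the middle bin. Tapbp ran from 2.49 and 2.55 without Aire to 3.68 and 3.87 at the top bin. Tap2 went the other way, from 2.0 and 1.93 to 1.05 and 1.04, as did Psmb9, from 2.36 and 2.42 to 1.58 and 1.62, and Tap1, from 1.52 and 1.65 to 1.26 and 1.00, although the intervals of Tap1 overlapped in the smaller library. H2-K1 was 54.9 and 63.9 in cells without, 59.7 and 66.0 with 1 Aire UMI, its highest bin, and 50.3 and 61.5 in the top bin, so the light chain differed by more than this heavy chain over the same cells.

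**Figure D3:**
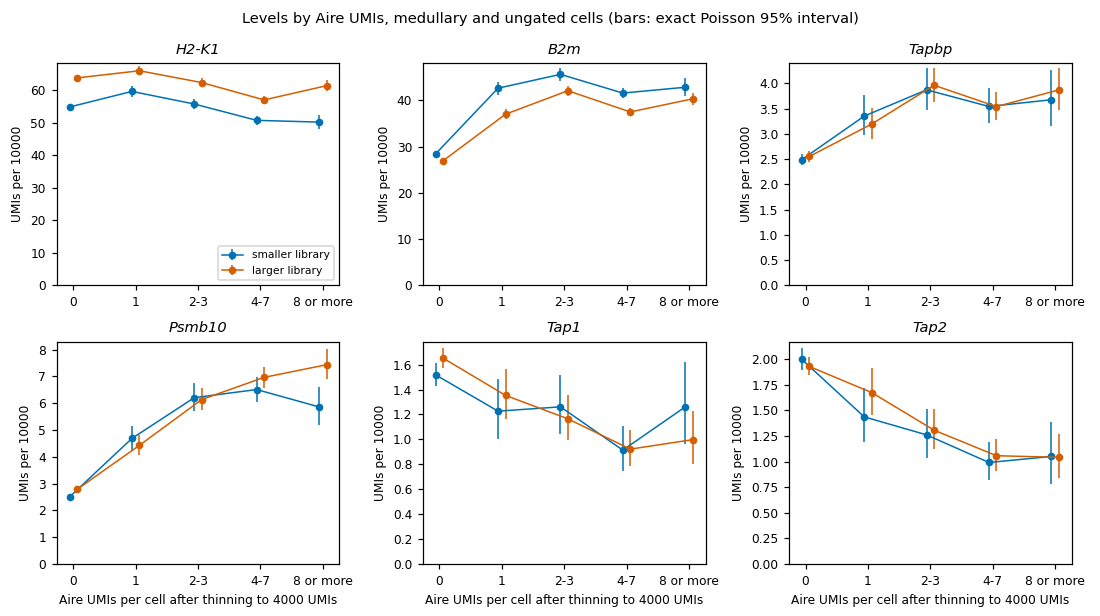
UMIs per 10000 of 6 members (vertical axis) by the number of Aire UMIs of a cell thinned to 4000 UMIs (horizontal axis), with exact Poisson 95% intervals, in each library. Psmb10, B2m and Tapbp were higher in cells with Aire UMIs, and Tap2 was lower in the top bin than in cells without Aire, as was Tap1 in the larger library.

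Between the libraries, no member was called. Over all kept cells H2-K1 was at 51.4 and 58.4 UMIs per 10000, a log2 ratio of larger over smaller of 0.18 (0.17 to 0.19). B2m was at 30.8 and 27.5, a ratio of -0.16, and Psmb8 was at 2.36 and 2.10, a ratio of -0.17. The other ratios were 0.13 for Psmb10, 0.11 for Psmb9, 0.08 for Tap2, 0.06 for Tap1, 0.05 for Tapbp, -0.08 for H2-D1 and -0.22 for Nlrc5. All 10 were under the limit, which 9.56% of 14607 genes passed. The median of all genes was -0.05.

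Within gates, 102 of 110 pairs of a member and a gate had enough UMIs (the other 8 were of Nlrc5), and none was called. In 87 of the 102 the size was under 0.25, and the extremes were 0.43 and -0.35. The share of all genes called was 5.26% in cTEC-like cells, 4.66% in those with thymocyte RNA, 5.53% in tuft-like cells, 2.78% in dividing cells, 6.06% in Aire-high cells and 14.9% in keratinocyte-like cells. It was 10.2% in microfold-like cells, 7.58% in enterocyte-like cells, 7.52% in Aire-low cells, 3.55% in Ccl21a-high cells and 6.49% in Pdpn-positive cells.

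The direction of H2-K1 was the same in every gate. It was higher in the larger library in 11 of 11 gates, by 0.09 to 0.34, with counting ranges that all lay above 0. These ranges leave out the spread over cells. In thinned cells the variance over the mean of H2-K1, which is 1 for counting alone, was higher than that in every gate. It ran from 2.72 in Ccl21a-high cells of the smaller library to 9.78 in enterocyte-like cells of the larger. Whether the ratio of each gate lies off 0 beyond the spread over cells was not tested. The largest ratios were in the gates with low levels of the gene, 0.34 in Pdpn-positive cells and in cTEC-like cells with thymocyte RNA and 0.30 in cTEC-like cells, and the smallest, 0.09 to 0.11, in Aire-low, keratinocyte-like and enterocyte-like cells. Of 935 genes with at least 100 UMIs in every gate and library, 9 of them members, 2 (0.214%) were higher with ranges off 0 in all 11 gates, H2-K1 and Fabp5. In the other direction there were 7 genes (0.749%), among them Jun, Zfp36, Fos, Hspa1b, Hspa1a and Egr1, which are known as immediate early or heat shock genes. The counts of 2 and 7 genes rest on ranges that leave out the spread over cells. Whether a range lies off 0 depends on the number of UMIs as well as on the ratio. H2-K1 had at least 3335 UMIs in each gate and library. Tap1, with 111 and 154 UMIs in microfold-like cells, had a larger ratio there of 0.43 with a range of -0.07 to 0.95. The 0.214% is therefore no measure of how unusual H2-K1 is among genes of lower count. By sign alone, 3.64% of the 935 genes were higher and 2.35% lower in all 11 gates. Each library is 1 handling of pooled tissue, so a condition, a pool and a preparation cannot be told apart, and the direction reads the other way under the sample labels.

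H2-D1 and B2m did not share this direction. H2-D1 was higher in the larger library in 1 of 11 gates, and B2m in 1 of 11 as well. The counting range of B2m, which also leaves out the spread over cells, was below 0 in 6 gates. The largest difference of B2m was in microfold-like cells, -0.33 (-0.42 to -0.25). H2-K1 and its partner chain therefore had opposite signs in most gates, in all cases under the limit.

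**Figure D4:**
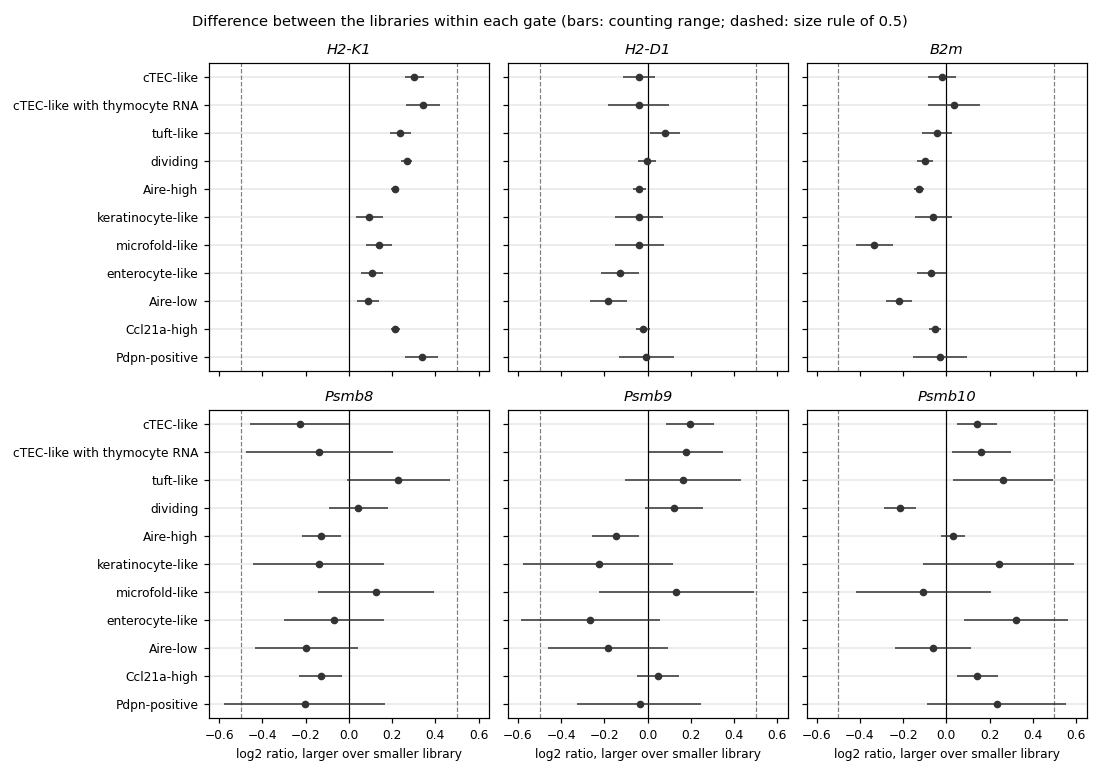
Log2 ratio of the larger over the smaller library (horizontal axis) for 6 members in the 11 gates (vertical axis), with ranges from the Poisson intervals of both libraries and dashed lines at the limit of 0.5 in either direction. H2-K1 lies above 0 in all 11 gates, by 0.09 to 0.34, and no member passes a dashed line.

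Of 70 other genes of the pathway lists, 66 had enough UMIs over all kept cells, and 1 was called, Psmb11, at 0.743 and 1.17 UMIs per 10000, a log2 ratio of 0.65. Of the gates, Psmb11 was called only in Ccl21a-high cells, where it had 101 and 223 UMIs and was higher in the larger library. In cTEC-like cells Psmb11 stood at 7.66 and 8.89 and was not called. Of 54 genes tested in that gate, the class Ib gene H2-Q7 was higher (7.43 and 10.9, a ratio of 0.55), and the transcription factor Irf1 (2.41 and 1.46, -0.72) and Psme1 (-0.61) were lower. H2-Q7 was also called in the gate with thymocyte RNA (0.77) and in Pdpn-positive cells (0.54), the gates in which H2-K1 had its largest ratios. How reads of these related genes were assigned was not tested. Irf1 was lower in Pdpn-positive cells by -1.32 (2.53 and 1.01). The class Ib gene H2-M2 was lower in tuft-like cells by -1.32 (4.30 and 1.72), and was called higher in keratinocyte-like cells. Of the list genes, 1 was called higher and 2 lower of 54 in cTEC-like cells, where 5.26% of all genes were called. The counts were 2 and 0 of 32 in those with thymocyte RNA (4.66%), 0 and 2 of 46 in tuft-like cells (5.53%) and 1 and 1 of 32 in Pdpn-positive cells (6.49%). They are too small to be read as a result about the pathway.

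Members also varied among cells of 1 gate. After each cell was thinned to 4000 UMIs, the 10 members together had a median of 75 and 80 UMIs per enterocyte-like cell, with 46 to 122.2 and 45 to 119.5 as the 10th to 90th percentiles. In Ccl21a-high cells the median was 46 and 48.5, with 32 to 64 and 33 to 67.5. In Pdpn-positive cells it was 27 and 34. The percentile ranges of these gates overlapped, so the gates differed in level without being separate classes.

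The spread over cells differed between gates as well. The variance over the mean of the summed members, which is 1 for counting alone, was 3.46 and 4.10 in Ccl21a-high cells and 12.9 and 12.1 in Aire-low cells. It was 10.8 and 11.1 in enterocyte-like cells and 9.42 and 8.82 in Aire-high cells. B2m alone had 9.46 and 8.95 in Aire-low and 2.01 and 1.99 in Ccl21a-high cells. Nlrc5, the least counted member, stayed between 0.82 and 1.75 in every gate. Where cells vary in proportion to the level, this ratio rises with the mean. Gates and genes of unlike level are therefore not ranked by it, and it was not set against the level.

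**Figure D5:**
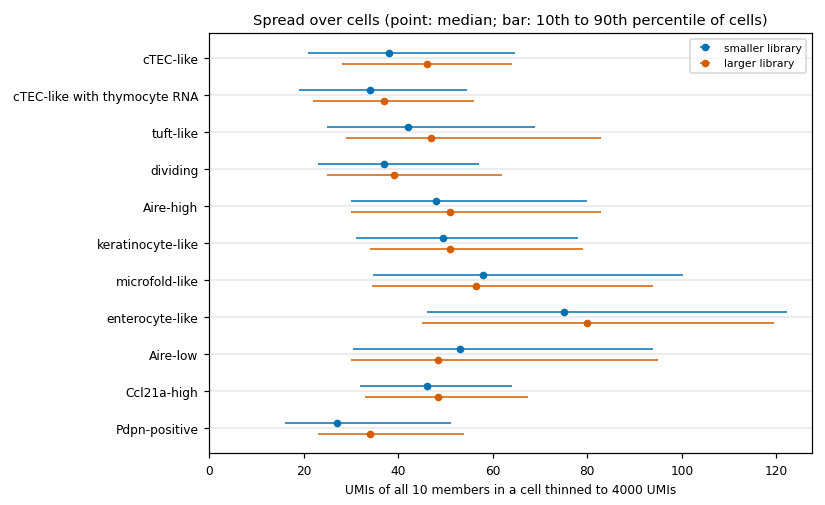
Summed UMIs of the 10 members per cell thinned to 4000 UMIs (horizontal axis) in each gate (vertical axis) and library, as the median and the 10th to 90th percentiles. Enterocyte-like cells had medians of 75 and 80 and the widest range between these percentiles, and Ccl21a-high cells medians of 46 and 48.5 with a narrower one.

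Over single cells the class I chains went together most. The Spearman correlation of H2-K1 with H2-D1 was 0.62 and 0.53 in cTEC-like cells, 0.50 and 0.52 in Aire-high cells and 0.37 and 0.39 in Ccl21a-high cells. That of H2-K1 with B2m was 0.60 and 0.40 in cTEC-like cells and 0.23 and 0.28 in Ccl21a-high cells. Psmb9 and Psmb10 had 0.42 and 0.25 in cTEC-like cells. Over all 45 pairs of members the median was between 0.038 and 0.102 in the 4 gates examined, and with such sparse counts a low value is no finding. These cells share a library and its free RNA.

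Across gates the likeness cut across roles. The highest Pearson r over the 22 points was 0.87, shared by H2-D1 with B2m, H2-K1 with B2m and Tapbp with Psmb8. H2-K1 with H2-D1 had 0.83, Psmb9 with Psmb10 0.60 and Tap1 with Psmb9 0.54, although Tap1 and Psmb9 start within the same bases. Psmb8 had 0.86 with B2m but -0.30 with Psmb9 and -0.31 with Psmb10, the other immunoproteasome subunits, and Tapbp had 0.07 with Tap1 and 0.28 with Tap2. The lowest was -0.65, for H2-D1 with Psmb9. With the mean profile of all 10 members, Tapbp (0.84), Psmb8 (0.81) and Nlrc5 (0.80) were most alike, and Psmb9 (0.09) and Psmb10 (0.03) least. Each member is part of that mean, which raises its r, so these values are not set against those of other genes. Nlrc5 had under 100 UMIs in at least 1 library in most gates. Among 14607 genes, the 10 that are no member with the highest r included Npc2 (0.88), Hdhd3, Creb3, Tmbim4, Map3k13, Irf2 (0.85), C8g, Sp140 and Ppp1r14d (0.84).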

How the data were processed

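TECs from 2 libraries, 1 per condition and each a pool of 3 mice, were analysed as raw UMI counts per gene and barcode, deposited by the authors in filtered Cell Ranger matrices (5.0.1 in the matrix header, 5.1 in the submitters' processing notes) on mm10. The labels give v2 chemistry and the study's methods v3. Reads were not reprocessed, and no normalized values were used.

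Cells with more than 2000 and fewer than 7500 detected genes and less than 15% mitochondrial UMIs were kept, with genes detected in at least 5 barcodes counted for that filter. A cell entered the first gate it met, in the order cTEC-like (split at 5 UMIs of the thymocyte genes), tuft-like, dividing, Aire-high, keratinocyte-like, microfold-like, enterocyte-like, Aire-low, Ccl21a-high, Pdpn-positive. The minimums were 5 UMIs of each of Prss16 and Ccl25, 5 of the division genes and of Aire (2 for Aire-low), 10 of the tuft and enterocyte genes, 20 of the keratinocyte and microfold genes and of Ccl21a, and 2 of Pdpn. They were set after the marker UMIs, but not the members, were seen.

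Levels were summed UMIs per 10000 with exact Poisson 95% intervals. Ratios had 0.5 UMI added, and their ranges joined opposite interval ends. With 1 library per condition no test was run, and calls are rules of size. For spread, correlations and Aire bins each cell was thinned to 4000 UMIs, which left out 0 and 5 cells, and the gates of the full counts were kept. The thinned alternative gated the thinned cells again. Gate profiles used log2(level + 0.1). The members and lists were chosen with earlier results of these data known. All members are named, and of each list those with the largest differences and the constitutive counterparts. Some genes that these rules would name are not reported here. Alternatives varied the cell filter, gate minimums, denominator, weighting and depth. The procedure was tested on simulated Poisson counts without spread over cells, with changes no smaller than the limit used between gates. It therefore does not test the ranges for real cells or for ratios under 0.5. Positions came from a GRCm38 annotation (GENCODE) and promoters from RefSeq. Python 3.11.15, numpy 2.4.6, scipy 1.17.1, pandas 2.3.3 and matplotlib 3.10.9 were used.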

Additional observations from a re-analysis of the deposited data

Results flagged for a closer look

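For 3 members the ratio of the larger over the smaller library had counting ranges on opposite sides of 0 in different gates. H2-D1 stood at 0.081 (0.01 to 0.15) on the log2 scale in tuft-like cells and at -0.18 (-0.27 to -0.10) in Aire-low cells. Psmb9 stood at 0.20 (0.09 to 0.31) in cTEC-like cells and at -0.15 (-0.26 to -0.04) in Aire-high cells. Psmb10 stood at 0.32 (0.08 to 0.57) in enterocyte-like cells and at -0.21 (-0.29 to -0.14) in dividing cells. The counting ranges leave out the spread over cells. The difference between the gates was not tested, since each condition had 1 library, and all 6 values were under the limit of 0.5.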

How the results depend on the processing

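No paired analysis was possible because each condition had 1 library. No value turned its direction among the calls between gates, and the calls of Psmb9 and Psmb10 in cTEC-like cells and of Psmb10 in Aire-high cells, each against Ccl21a-high cells, held in every alternative run. The ratio of H2-K1 over all kept cells (0.18) was 0.19 after thinning, 0.19 as a mean over cells, 0.21 with equal weight for each gate, 0.23 with the median ratio of all genes taken off and 0.23 without cells with at least 2 myeloid UMIs. The number of pairs of a member and a gate past 0.5 between the libraries (0) was 1 with a 10% mitochondrial limit, with doubled minimums, after thinning and as a mean over cells. It was 2 with a minimum of 20 UMIs and 2 without the cells with myeloid UMIs. Members lower in Aire-high than Ccl21a-high cells (0) were 1, Tap2, with minimums per 10000 UMIs, with doubled minimums and after thinning. Members higher in enterocyte-like than Ccl21a-high cells (2, B2m and Psmb8) were 1 with doubled minimums and after thinning, where only Tapbp was called, 1 with minimums divided by 2 (B2m), 1 without the cells with myeloid UMIs (Psmb8) and 0 without mitochondrial and ribosomal genes. With minimums per 10000 UMIs they were 2, B2m and Tapbp. Members lower in tuft-like than Ccl21a-high cells (2) were 0 without cells with at least 2 UMIs of the thymocyte genes. They were also 0 with minimums divided by 2. With Tap2 they were 3 under minimums per 10000 UMIs, after thinning, as a mean over cells and without mitochondrial and ribosomal genes. The minimums divided by 2 and the myeloid exclusion were chosen after seeing the data. The cause of these shifts was not tested. Among member ratios between the libraries, 48 of 530 moved beyond their counting range, as did 246 of 1300 member values between gates. The ratio of Psmb9 in cTEC-like cells (0.20) was -0.04 after thinning. In that alternative the gates were drawn again from the thinned counts with the same minimums, so the cells differed as well as the depth. The cTEC-like gate then held 81 and 240 cells. Depth limited Nlrc5 most. The gate of cTEC-like cells with thymocyte RNA gave no value where those cells were left out.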

Other observations

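H2-M2 and Psme1, chosen here after their values were seen, spread widely over the gates. The class Ib gene H2-M2 stood at 26.8 and 27.1 UMIs per 10000 in microfold-like cells of the smaller and larger library, 10.2 and 9.95 in enterocyte-like cells, 5.72 and 6.75 in Ccl21a-high cells and 0.36 and 0.91 in Pdpn-positive cells. Psme1, a chain of the PA28 activator, stood at 0.66 and 0.52 in cTEC-like cells with thymocyte RNA, 1.03 and 0.67 in other cTEC-like cells and 5.05 and 5.20 in enterocyte-like cells.

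Ifng, a cytokine known to induce class I and immunoproteasome genes, was found in few cells. The smaller library held 33 UMIs in 15 of 3233 kept cells, and the larger 168 UMIs in 19 of 5070. In the larger library 147 of the 168 UMIs lay in 5 cells with at least 5 each. The highest held 70 in a cell of no gate, 38 in an enterocyte-like cell and 25 in a microfold-like cell. Those 5 cells together held 1 UMI of the 15 thymocyte genes. The levels of Ifng by gate therefore rest on single cells, and no comparison of the libraries was made for it.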
